A study of Mus musculus with 43 samples.

Results

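Gata4, Gata6, Sox17, Sox7, Foxa2, Pdgfra, Lamb1, Lamc1, Col4a1 and Col4a2 are a set of genes by which the primitive endoderm of the early mouse embryo is recognised. They were chosen by symbol, as transcription factors, a receptor and basement membrane proteins of that lineage. All 10 were present among the 35869 gene symbols listed in the deposited RNA-seq tables, and they were followed in every group of oocytes and morulae.

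Primitive endoderm is the layer of the blastocyst that faces the blastocoel and later forms the yolk sac endoderm. Inner cell mass cells take this fate under FGF signalling through MAP kinase, which favours GATA6 over the epiblast factor NANOG. GATA6 then acts upstream of Pdgfra, Sox17, Gata4 and Sox7, and the layer secretes laminin and type IV collagen into the basement membrane beneath it.

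The study measured RNA in full-grown oocytes and in morulae, and its title names the counteraction of Polycomb H2AK119ub1 by MLL2. PRC1 is the Polycomb complex that deposits that mark, Pcgf1 and Pcgf6 encode subunits of its variant forms, and Mll2 (symbol Kmt2b) encodes an H3K4 methyltransferase. A first oocyte set held 2 wild-type libraries (PRC1-WT) and 2 labelled PRC1 catalytic dead (PRC1-CD). A second held 3 wild-type (WT), 3 Pcgf1/6 double knockout (DKO) and 3 Pcgf1/6 and Mll2 triple knockout (TKO) libraries. The morulae were 10 wild-type, 10 from the maternal double knockout (matDKO) and 10 from the maternal triple knockout (matTKO), so that 43 libraries entered. The Cre line behind each deletion, the animals' ages and the fathers' genotypes were not given in the sources used here. The labels do not say that replicates came from separate animals, so the p-values measure the spread between these libraries, which may be technical.

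Polycomb and MLL2 are known to act at CpG-rich start sites, and the stretches below show how CpG content differs between 3 of the start regions that were matched. No test here relates CpG content to the expression values. They were read 5′ to 3′ on the gene's strand from RefSeq (GRCm38.p6), with each CpG in capitals: the 250 bases before the Pdgfra start (chr5:75152001-75152250), the 191 bases before the first exon of Lamb1 (chr12:31265043-31265233), and the 22 bases shared by the Col4a1 and Col4a2 starts (chr8:11312805-11312826, plus strand).
Pdgfra: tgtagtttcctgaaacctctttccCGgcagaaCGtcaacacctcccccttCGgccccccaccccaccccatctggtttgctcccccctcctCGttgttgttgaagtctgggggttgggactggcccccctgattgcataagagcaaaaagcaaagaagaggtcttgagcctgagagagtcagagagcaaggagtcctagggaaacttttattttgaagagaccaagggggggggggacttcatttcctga
Lamb1: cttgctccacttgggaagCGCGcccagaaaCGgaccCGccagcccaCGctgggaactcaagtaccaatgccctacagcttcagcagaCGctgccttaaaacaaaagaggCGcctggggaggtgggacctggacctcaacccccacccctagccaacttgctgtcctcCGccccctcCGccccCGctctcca
Col4a1 and Col4a2: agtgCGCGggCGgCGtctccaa

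Over windows of 300 bases around RefSeq start sites, Pdgfra had 5 CpG, Lamb1 18, Col4a1 37 and Col4a2 33, while the 3 Foxa2 windows had 12, 23 and 13. The median over 32851 windows of 27025 symbols was 7, with quartiles of 3 and 20. Thus Pdgfra lay below the median of all start regions and the collagen pair above the upper quartile. The E-box CACGTG, searched on both strands, was in 7.15% of all windows and in 0 of the 7 windows of these genes. The GATA motif AGATAA, also searched on both strands and not overlapping the E-box, was in 11.2% of all windows and in 1 Foxa2 window. These matches describe letters in a window and are no evidence of binding. Entries for Gata4, Gata6, Sox17, Sox7 and Lamc1 were not matched.

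The loci lie on 7 chromosomes of GRCm38. Gata4 spans chr14:63198922-63271692 on the minus strand, and Sox7 spans chr14:63943673-63950732 on the plus strand of the same chromosome. Gata6 is at chr18:11052064-11085635 (plus), Sox17 at chr1:4490931-4497354 (minus), Foxa2 at chr2:148042877-148046969 (minus) and Pdgfra at chr5:75152292-75198215 (plus). Lamb1 is at chr12:31265234-31329644 (plus) and Lamc1 at chr1:153218922-153332786 (minus). Col4a1 (chr8:11198423-11312826, minus) and Col4a2 (chr8:11312805-11449287, plus) stand head to head, and the annotated ends of their first exons overlap by 22 bases.

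The oocyte tables hold RPKM and the morula table values with a nearly fixed sum per library, treated as TPM, so levels across tables were normalised separately and are given side by side with no test. Read depth is unknown, and a 0 means only that a gene is listed at 0. Between 10902 and 13086 genes reached 1 unit in each library. Libraries of a group correlated at a median r of 0.984 or more in oocytes and of 0.874 to 0.964 in morulae, where 4 libraries (matDKO replicates 8 and 9, matTKO replicates 8 and 9) fell under 0.9 and stand apart. Pcgf1 was 1108 ± 39.9 RPKM (SD, n = 3) in WT oocytes and 12.3 and 12.2 on average in DKO and TKO, Pcgf6 was 154, 57.1 and 72.2, and Kmt2b was 4.85, 3.9 and 1.14. In morulae, where the label names a maternal deletion, Pcgf1 averaged 23.4, 9.94 and 14.9 TPM in WT, matDKO and matTKO. RNA levels do not check the catalytic dead label, and in 1 PRC1-CD library (replicate 2) the tissue field reads embryo while its title and stage read oocyte. A list of 9 oocyte markers was detected in full in every oocyte group, and a list of 7 morula and pluripotency markers in every morula group.

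In the wild-type libraries, 1 of these genes was abundant in oocytes and a different 1 led in morulae. Lamb1, the laminin beta 1 chain, was at 94.99 and 89.34 RPKM in the PRC1-WT oocytes and at 92.06, 95.38 and 94.01 RPKM in the WT oocytes. Gata4 (1.08 to 2.46 RPKM over the 5 wild-type oocyte libraries) and Lamc1, the laminin gamma 1 chain (1.03 to 1.33 RPKM), followed at a far lower level, and their ranges overlapped. Col4a1 (0.47 to 0.83 RPKM) and Col4a2 (0.35 to 0.53 RPKM) were lower again and overlapped each other. Gata6 stood at 0.09 to 0.27 RPKM, Sox17 at 0 to 0.14, Sox7 at 0 to 0.07 and Pdgfra at 0.01 to 0.04, and these low values cannot be put in order. Foxa2, a forkhead factor of endoderm, was listed at 0 in all 43 libraries. Wild-type morulae had a different order: Gata6 was first with a median of 103 TPM, followed by Lamb1 (16.2), then Col4a1 (8.45), Pdgfra (7.96) and Lamc1 (7.32), then Col4a2 (3.79) and Sox17 (2.39). Gata4 (0.41) and Sox7 (0.02) were lowest. From Lamb1 down, the range of each gene overlapped that of the next, and Gata6 lay above all of them.

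In catalytic dead PRC1 oocytes, Gata6, Gata4, Sox17 and Lamc1 were called higher than in their controls, while Lamb1 was not called. Of the 10 genes, 5 passed the filter on low values (a mean of at least 1 RPKM in 1 of the groups), and Gata6 and Sox17 passed only through the PRC1-CD group, so their passing already required a higher level there, and the counts over these genes are descriptions. With limma, 4 of the 5 were called higher (adjusted p under 0.05 over all 13376 genes tested), where 17.3% of all genes tested were called higher, 5.61% lower and 22.9% in either direction. The median change of the 5 was 1.05 on the log2(RPKM + 1) scale and that of all genes tested 0.04. This scale understates the change of low genes, and all changes below are on it. Of all calls 75.5% were higher, but 55.4% after quantile and 62.3% after median-ratio scaling, which moved the median of all genes to -0.07 and -0.06, so changes of about 0.1 have no settled sign. In bulk RNA, fewer cells of a type and less RNA per cell cannot be told apart.

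Gata6, the earliest GATA factor of the lineage, was at 0.27 and 0.21 RPKM in PRC1-WT oocytes and at 3.42 and 2.83 RPKM in PRC1-CD oocytes. The ratio of the means was 13.0, and the fitted change was 1.73 ± 0.17 (SE; 95% interval 1.33 to 2.14; adjusted p = 7.34e-04). Both mutant libraries were far above both controls, and this was the only 1 of the 4 calls that was kept when any 1 of the 4 libraries was left out (1.63 to 1.83, adjusted p 0.0134 to 0.0270). In such fits the lone library of a group is assumed to vary like the others.

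Sox17, the SOX factor that accompanies maturing primitive endoderm, moved from near nothing to about 1 RPKM. It was at 0.14 and 0.10 RPKM in PRC1-WT and at 1.06 and 1.61 RPKM in PRC1-CD oocytes, a change of 1.05 ± 0.18 (SE; adjusted p = 0.0061). Its 2 mutant values differed from each other by more than its control values did, and the call was lost without either PRC1-WT library (adjusted p 0.0656 and 0.0725). Gata4, a second GATA factor of the lineage that is also used in gonads and heart, was at 2.46 and 1.84 RPKM against 5.70 and 5.41 RPKM. Both PRC1-CD libraries exceeded both controls, with a ratio of means of 2.58 and a change of 1.06 ± 0.19 (SE; adjusted p = 0.00708), and the call was lost in 3 of the 4 fits without a library (adjusted p 0.0640 to 0.0939). Sox7, the partner SOX factor expressed later in the lineage, was at 0.07 and 0.02 against 0.03 and 0.07 RPKM. The groups overlapped below the filter, and without it the adjusted p was 0.920.

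Pdgfra, the receptor for PDGF-A that marks and sustains primitive endoderm cells, was at 0.03 RPKM in both PRC1-WT libraries and at 0.50 and 0.58 RPKM in the PRC1-CD libraries. It did not reach the filter. When every gene was tested without it, the change of Pdgfra was 0.58 ± 0.06 (SE; adjusted p = 0.0199). The groups were apart but all 4 values stayed under 1 RPKM.

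Among basement membrane genes, Lamc1 was at 1.32 and 1.17 RPKM in PRC1-WT and at 2.85 and 2.57 RPKM in PRC1-CD oocytes, with a ratio of means of 2.18 and a change of 0.72 ± 0.17 (SE; adjusted p = 0.0222). The groups were apart, but the call was lost when any 1 library was left out (adjusted p 0.0774 to 0.114), without the filter (0.0801) and after quantile normalization (0.42, adjusted p = 0.110). Lamb1, which pairs with the gamma 1 chain in the laminin trimer, was at 94.99 and 89.34 against 86.83 and 102.61 RPKM. The groups overlapped and the change was 0.03 ± 0.16 (SE; 95% interval -0.34 to 0.41; adjusted p = 0.898). Col4a1 and Col4a2, the chains of the widespread type IV collagen, were slightly higher in both PRC1-CD libraries (0.96 and 0.92 against 0.83 and 0.52 RPKM for Col4a1, 0.49 and 0.44 against 0.39 and 0.35 RPKM for Col4a2) and did not reach the filter. Without it their changes were 0.22 and 0.10 (adjusted p 0.449 and 0.509). Groups of 2 against 2 were apart in 63.4% of all genes tested, and with the mutant higher in 36.1%, so separation alone says little here.

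Markers of somatic ovary cells were given beside these values because granulosa cells express Gata4 and Gata6. The summed level of 14 granulosa and cumulus markers was 30.4 to 35.6 RPKM in PRC1-WT and 56.4 to 61.7 RPKM in PRC1-CD oocytes, and 13 of the 14 means were higher in PRC1-CD. Of the 5 that were tested, 3 were called higher (Fshr, Inha and Nr5a2) and 0 lower, beside 17.3% and 5.61% of all genes tested. The Inha call (limma adjusted p = 0.0354) was lost without the filter and with quantile normalization. The Nr5a2 call (0.64, limma adjusted p = 0.0469) was lost in both of these settings, with median-ratio scaling and with a pseudocount of 0.1. Fshr and Inha passed the filter only through the PRC1-CD group, so their passing already required a higher level there. Fshr, the FSH receptor, accounted for most of the higher sum (0.50 to 0.60 against 12.02 to 18.57 RPKM, a change of 3.37). Among the markers that did not reach the filter, Amh (0 to 0.05 against 0 RPKM) and Foxl2 (0 against 0.03 to 0.10 RPKM) were at or near 0. Of 9 stroma and theca markers, 4 were listed at 0 in PRC1-CD and 7 in PRC1-WT, and the sum was 1.01 to 1.04 against 6.01 to 6.82 RPKM, nearly all of it from Dcn. The part of such cells in the changes was not tested.

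**Figure D1:**
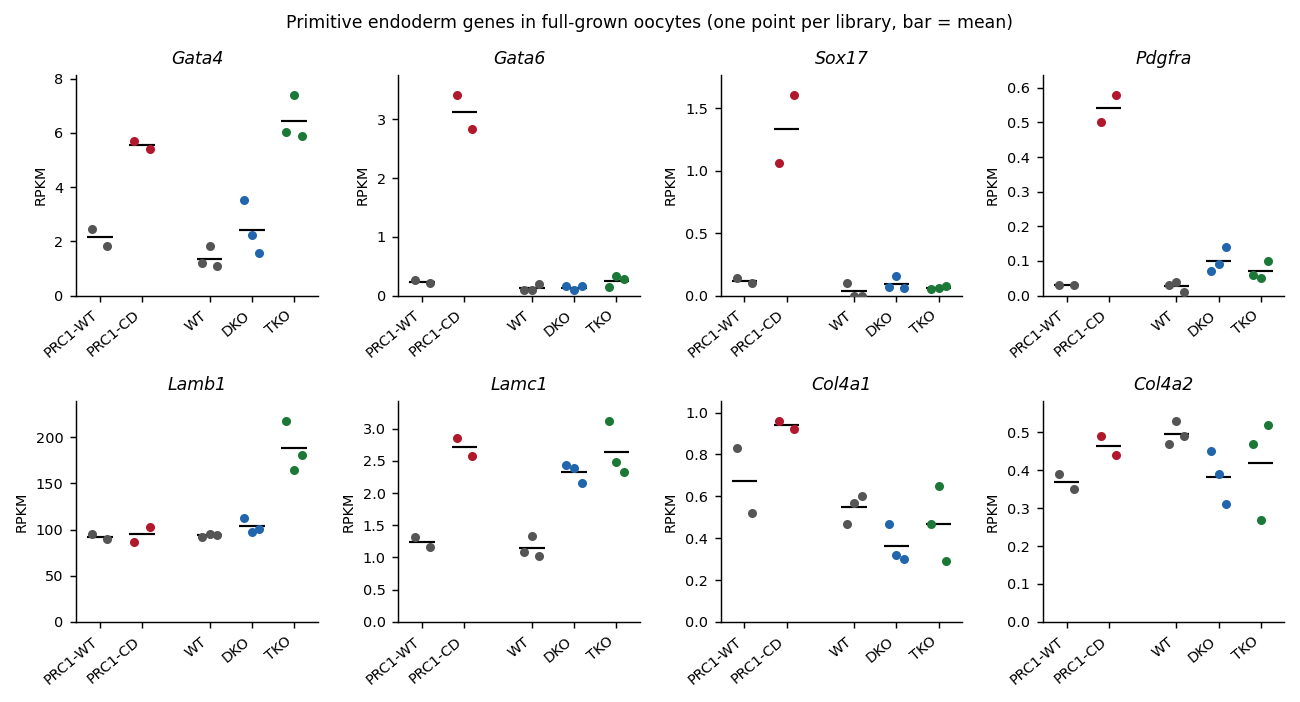
Levels of 8 primitive endoderm genes in full-grown oocytes: RPKM on the vertical axis, 1 point per library, bar at the group mean, with the 2 wild-type sets in grey. Gata6 and Sox17 exceed 1 RPKM in the PRC1-CD libraries alone, while Lamb1 and Gata4 are highest among the second set in the TKO libraries.

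In the second oocyte set, Lamc1 was called higher in DKO, and Gata4, Lamb1 and Lamc1 were called higher in TKO. Gata4, Lamb1 and Lamc1 passed the filter, in each case already at a mean of 1 RPKM in WT. In DKO oocytes 1 of the 3 was called higher, against 17.5% of the 12873 genes tested (11.3% lower, 28.8% in either direction). In TKO oocytes all 3 were called higher than WT, against 31.2% (20.1% lower, 51.3% in either direction). The median change of the 3 was 0.51 in DKO and 0.98 in TKO, and that of all genes tested 0.03 and 0.09. Both comparisons share the 3 WT libraries. Groups were apart in 50.3% of all genes in DKO (28.2% with the mutant higher), in 59.7% in TKO (36.1% higher) and in 54.7% between TKO and DKO (30.1% higher). In each comparison with WT, 60.8% of all calls were higher, against 48.9% and 51.6% after quantile and 47.6% and 49.2% after median-ratio scaling.

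Gata4 was at 1.2, 1.82 and 1.08 RPKM in WT, at 3.51, 2.23 and 1.57 RPKM in DKO and at 6.05, 7.41 and 5.87 RPKM in TKO. The DKO values overlapped WT through a single library on each side, while every TKO value lay above all others. The change was 0.51 ± 0.20 (SE; 95% interval 0.06 to 0.96; adjusted p = 0.0851) in DKO and 1.66 ± 0.20 (1.21 to 2.11; adjusted p = 1.19e-04) in TKO, a ratio of means of 4.71. Without DKO replicate 3, the lowest of its group, the DKO change was 0.70 with an adjusted p of 0.0309. TKO exceeded DKO directly by 1.15 ± 0.20 (SE; adjusted p = 0.00124), the comparison that differs by the loss of Mll2.

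Gata6 and Sox17 stayed under 1 RPKM in all 9 of these oocyte libraries. Gata6 was at 0.10, 0.09 and 0.19 RPKM in WT, at 0.16, 0.09 and 0.16 in DKO and at 0.14, 0.33 and 0.28 in TKO, and each mutant group overlapped WT. Sox17 was at 0.10, 0 and 0 in WT, at 0.07, 0.16 and 0.06 in DKO and at 0.05, 0.06 and 0.08 in TKO. Thus the levels of 3.13 ± 0.417 RPKM for Gata6 and 1.34 ± 0.389 for Sox17 (mean ± SD, n = 2) in PRC1-CD stood beside means of 0.137 and 0.0967 RPKM in DKO. The tables have separate controls and a difference between the 2 effects was not tested. Sox7 did not exceed 0.05 RPKM in these libraries and was listed at 0 in all 3 TKO libraries.

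Pdgfra was at 0.03, 0.04 and 0.01 RPKM in WT, at 0.07, 0.09 and 0.14 in DKO and at 0.06, 0.05 and 0.10 in TKO. Each mutant library was above each control, but at a level that did not reach the filter. Without the filter the DKO change was 0.10 ± 0.03 (SE; adjusted p = 0.0662).

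Lamb1 was at 92.06, 95.38 and 94.01 RPKM in WT, at 112.49, 97.54 and 100.60 in DKO and at 217.62, 164.68 and 181.21 in TKO. All DKO libraries were slightly above WT and all TKO libraries were well above both. The DKO change was 0.14 ± 0.10 (SE; 95% interval -0.08 to 0.36; adjusted p = 0.318) and the TKO change 0.98 ± 0.10 (0.77 to 1.2; adjusted p = 3.44e-05), from 93.8 ± 1.67 to 188 ± 27.1 RPKM (mean ± SD, n = 3). Against DKO the TKO change was 0.85 ± 0.10 (SE; adjusted p = 1.09e-04). Lamb1 was the most abundant of the 10 genes in every oocyte group.

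Lamc1, far less abundant than its partner chain, was called higher in both mutants. It was at 1.08, 1.33 and 1.03 RPKM in WT, at 2.44, 2.39 and 2.16 in DKO and at 3.12, 2.48 and 2.32 in TKO. Every mutant library was above WT, while DKO and TKO overlapped. The changes were 0.64 ± 0.12 (SE; adjusted p = 0.00342) in DKO and 0.76 ± 0.12 (adjusted p = 6.01e-04) in TKO, and TKO against DKO was 0.12 ± 0.12 (95% interval -0.15 to 0.39; adjusted p = 0.419). Across TKO against DKO, 2 of the 3 genes were called higher, against 26.8% of all genes tested (21.8% lower, 48.6% in either direction), with medians of 0.85 and 0.04.

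The collagen pair stayed below 1 RPKM throughout. Col4a1 was at 0.47, 0.57 and 0.60 RPKM in WT, at 0.47, 0.32 and 0.30 in DKO and at 0.47, 0.65 and 0.29 in TKO. Col4a2 was at 0.47, 0.53 and 0.49 in WT, 0.45, 0.39 and 0.31 in DKO and 0.47, 0.27 and 0.52 in TKO. The 3 DKO values of Col4a2 were below WT by small steps, and the other groups of both genes overlapped or touched. Neither gene reached the filter, and without it the changes of Col4a1 and Col4a2 were -0.18 and -0.11 in DKO (adjusted p 0.302 and 0.450) and both -0.08 in TKO (adjusted p 0.635 and 0.547). Granulosa marker sums in this set were 29.6 to 32.9 RPKM in WT against 26 to 29.8 in DKO and 32.9 to 36.7 in TKO, and Fshr averaged 0.477, 0.203 and 6.41 RPKM in that order.

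**Figure D2:**
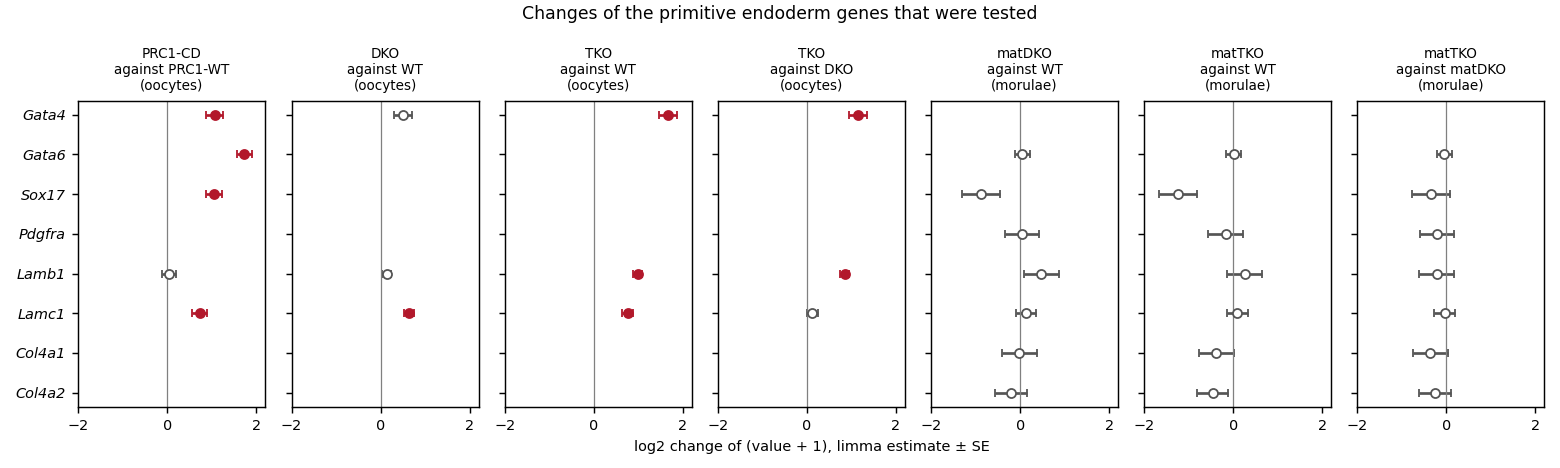
Limma estimate and SE (horizontal axis, log2 change of value + 1) of each gene that passed the filter, in 4 oocyte and 3 morula comparisons, with red filled points where the adjusted p was under 0.05. The called changes all lie to the right of 0 in oocytes. The morula estimates, none of them called, carry wider errors than those in oocytes except for Gata6. Sox17 in matDKO and matTKO lies furthest to the left.

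Genes that act with these in the lineage were described by lists drawn up for this purpose. In the FGF and MAP kinase list, 18 of 27 genes were tested in PRC1-CD with 3 called higher and 1 lower, and 19 were tested in the second set with 5 higher and 1 lower in DKO and 8 higher and 1 lower in TKO. The list medians were -0.11, 0.23 and 0.26. The share called higher in PRC1-CD was near the 17.3% of all genes, and the shares in DKO and TKO stand beside 17.5% and 31.2% of all genes called higher and 11.3% and 20.1% called lower, which also serve the lists below. Dusp6, a phosphatase induced by ERK that dampens it, averaged 0.01 RPKM in PRC1-WT against 4.13 in PRC1-CD (change 2.34, adjusted p = 2.04e-04), and 0.103, 2.38 and 0.65 RPKM in WT, DKO and TKO. Dusp4, a related phosphatase, averaged 0.06 and 2.09 RPKM, then 0.0633, 1.08 and 2.05 RPKM. Egr1, an immediate early factor, averaged 1.73, 3.28 and 9.20 RPKM in WT, DKO and TKO (TKO change 1.90, adjusted p = 1.73e-06), and Fgfr2, a receptor for FGF4, averaged 5.98, 7.26 and 11 RPKM (TKO change 0.78). Dusp6 and Dusp4 were near 0 in wild type and so passed the filter only through mutant groups.

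Of 5 PDGF genes, 2 were tested in each oocyte table, with 1 called higher in PRC1-CD, 2 in DKO and 1 in TKO, 0 lower, and medians of 0.82, 0.85 and 0.81. Pdgfa, which encodes the ligand of Pdgfra, averaged 2.71 and 7.35 RPKM in PRC1-WT and PRC1-CD (change 1.17 ± 0.19 SE, adjusted p = 0.00532, lost in 2 of the 4 fits without a library). In the second set it averaged 3.15 RPKM in WT, 8.60 in DKO (1.2, adjusted p = 0.00184) and 9.47 in TKO (1.34, adjusted p = 4.40e-04). The ligand was thus higher in all 3 mutant groups, where its receptor was under 1 RPKM.

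Of 22 other primitive endoderm genes, 7 were tested in PRC1-CD with 1 higher and 1 lower, and 8 in the second set with 4 higher and 1 lower in DKO and 5 higher and 1 lower in TKO. The list medians were 0.23, 0.35 and 0.26, and the share called higher in PRC1-CD was again near that of all genes. Cited1, a transcriptional coregulator, averaged 1.59 and 14.6 RPKM in PRC1-WT and PRC1-CD (change 2.63, adjusted p = 8.22e-04), and 1.38, 4.59 and 4.63 RPKM in WT, DKO and TKO (1.23 in both). Among 7 other GATA, SOXF and FOXA genes, 3 were tested, and in each of the 3 comparisons with wild type 1 was called higher and 1 lower. Of these, Foxa3 passed the filter only through PRC1-CD in the first set and only through TKO in the second. Its passing thus already required a higher level in those groups. Foxa3 was the higher one, by 0.92 in PRC1-CD, 0.60 in DKO and 1.11 in TKO, and its first call was lost in 2 of the 3 fits without a library that tested it and its second in 5 of 6. Gata3, a trophectoderm GATA factor, was the lower one: 14.3 and 5.81 RPKM in PRC1-WT and PRC1-CD (-1.17, adjusted p = 0.00636, lost in 3 of the 4 fits without a library), and 11.1, 3.91 and 5.98 RPKM in WT, DKO and TKO (-1.31 and -0.80). Gata4 and Gata3 transcripts therefore moved in opposite directions in PRC1-CD and TKO oocytes.

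Among the 13 other laminin and type IV collagen genes, 6 were tested in each table, with 1 higher and 1 lower in PRC1-CD, 0 higher and 2 lower in DKO and 0 higher and 3 lower in TKO, and medians of -0.32, -0.11 and -0.20. Lama4, the alpha 4 chain, averaged 11.5, 7.0 and 9.05 RPKM in WT, DKO and TKO (DKO change -0.64, adjusted p = 5.03e-04). The genes called lower in TKO were Lama2 (-0.31), Lama4 (-0.31) and Lamb2 (-0.40), other chains of laminin, in the oocytes where Lamb1 and Lamc1 were higher. These 3 calls were lost in 2, 1 and 4 of 6 fits without a library, in that order, and that of Lamb2 also without the filter. Of 9 further basement membrane components, 3 of 3 tested were called higher in PRC1-CD, led by the matricellular gene Smoc1 (0.025 against 4.12 RPKM, change 2.32), which passed the filter only through PRC1-CD. The other calls there, Fbln1 (0.87) and Npnt (0.79), were each lost in 2 of the 4 fits without a library. In the second set 1 was tested, Fbln1, called higher in DKO (0.53, adjusted p = 0.0495, lost in 5 of 6 fits without a library) and in TKO (0.81).

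Of 14 genes for enzymes and carriers that fold and export collagen, 7 were tested, with 2 higher in PRC1-CD, 3 higher and 2 lower in DKO and 3 higher and 1 lower in TKO, and medians of 0.12, 0.00 and 0.49. In either direction 22.9%, 28.8% and 51.3% of all genes were called. Plod2 and P4ha2 were near 0 in wild type and reached a mean of 1 RPKM only in mutant groups. Plod2, a lysyl hydroxylase of procollagen, averaged 0.165 and 14.8 RPKM in PRC1-WT and PRC1-CD (change 3.76 ± 0.18 SE, adjusted p = 9.17e-05). In the second set it averaged 0.18 RPKM in WT against 8.75 ± 5.48 (SD) in DKO and 1.03 in TKO, so that TKO was below DKO by a change of -2.28 (adjusted p = 0.00188), the reverse of Gata4 and Lamb1. P4ha2, a prolyl hydroxylase subunit, averaged 0.195 and 2.39 RPKM in the first set (1.5) and 0.373, 0.993 and 1.01 RPKM in the second. P4hb, its partner subunit and an abundant chaperone, averaged 51.9 RPKM in WT against 39.5 in DKO (-0.39) and 80.3 in TKO (0.62). Itga6, the alpha 6 integrin that binds laminin, averaged 27.8, 29.9 and 51.8 RPKM (TKO change 0.87, adjusted p = 5.51e-05) and was 1 of 2 higher among 4 tested of 11 receptor genes.

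**Figure D3:**
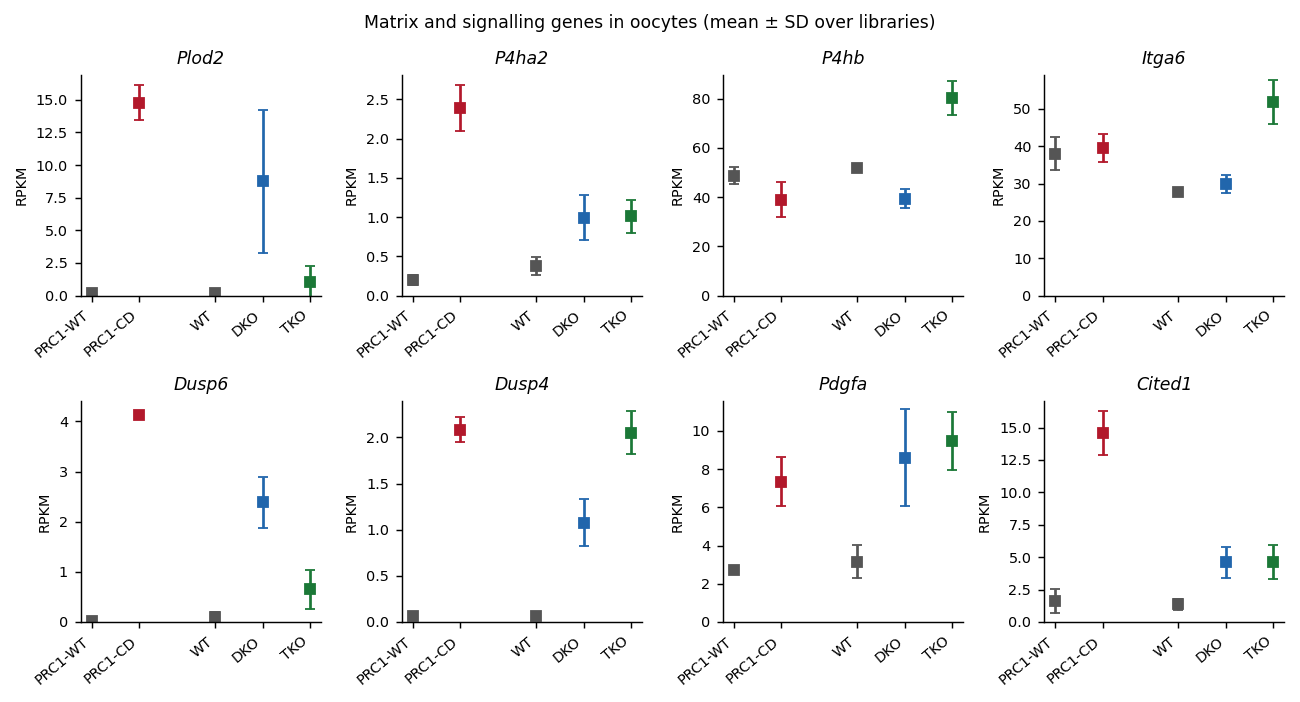
Mean and SD over libraries, in RPKM, of 8 matrix and signalling genes in the 5 oocyte groups. Plod2 and Dusp6 are higher in DKO than in TKO, whereas P4hb and Itga6 are highest in TKO.

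In morulae none of the 10 genes was called in any comparison. By limma, 7 passed the filter, all with a WT mean of at least 1 TPM, and 0 were called in matDKO (1.74% of the 13056 genes tested were called, 0.329% higher and 1.41% lower), 0 in matTKO (0.567%, 0.176% higher and 0.391% lower) and 0 in matTKO against matDKO (0.0689%, 0.0460% higher and 0.0230% lower). At an unadjusted p under 0.05, 1 member passed in matDKO and 1 in matTKO, Sox17 in both, and 0 in matTKO against matDKO, beside 17.3%, 12.9% and 6.64% of all genes. The medians of the 7 changes were 0.03, -0.18 and -0.22, and those of all genes tested -0.09, -0.06 and 0.03. The comparisons share libraries in pairs. Of all matDKO calls 18.9% were higher, but 37.2% after quantile and 36.2% after median-ratio scaling.

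Gata6 was abundant in every group. It ranged from 83.0 through a median of 103 to 139 TPM in WT, from 74.9 through 112 to 161 in matDKO and from 47.8 through 105 to 155 in matTKO. The groups overlapped, and the means were 105 ± 16.5, 110 ± 24.5 and 110 ± 35.0 TPM (SD, n = 10). In matTKO 3 libraries lay above every WT library and 2 below, and in matDKO 1 lay above and 1 below. The change was 0.05 ± 0.17 (SE; 95% interval -0.29 to 0.39; adjusted p = 0.894) in matDKO and 0.00 ± 0.17 (adjusted p = 0.995) in matTKO. The matDKO interval allows changes of up to 0.39 on this scale. Gata6 had been higher in PRC1-CD oocytes, for which no morulae were analysed here.

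Sox17 was low and uneven. In WT it ranged from 0.11 through a median of 2.39 to 7.86 TPM, with 7 of 10 libraries at 1 TPM or more. In matDKO it ranged from 0 through 0.26 to 6.82 with 3 of 10 at 1 TPM or more, and in matTKO from 0 through 0.03 to 3.96 with 2 of 10. Both mutant groups had 4 libraries listed at 0 and WT had none, but the groups overlapped. The change was -0.89 ± 0.42 (SE; 95% interval -1.75 to -0.02; adjusted p = 0.277) in matDKO and -1.24 ± 0.42 (-2.11 to -0.38; adjusted p = 0.188) in matTKO, neither of which passed. Without the 4 libraries that stand apart the values were -0.68 (adjusted p = 0.437) and -1.12 (0.229).

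Gata4 and Sox7 did not pass the filter in morulae. Gata4 ranged from 0.09 through a median of 0.41 to 0.96 TPM in WT, from 0 through 0.415 to 1.36 in matDKO and from 0.02 through 0.25 to 1.37 in matTKO. Sox7 had medians of 0.02, 0.02 and 0.085 TPM and was listed at 0 in 4, 5 and 3 libraries. Both genes had medians under 1 TPM in every group, where the median of Gata6 was at least 103 TPM.

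Pdgfra ranged from 3.07 through a median of 7.96 to 11.4 TPM in WT, from 1.03 through 6.74 to 24.2 in matDKO and from 1.23 through 7.32 to 19.5 in matTKO. The medians were close and the mutant ranges extended beyond WT on both sides. The coefficient of variation was 35.9% in WT, 78.7% in matDKO and 70.6% in matTKO. The change was 0.03 ± 0.38 (SE; 95% interval -0.75 to 0.82; adjusted p = 0.974) in matDKO and -0.18 (adjusted p = 0.880) in matTKO.

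Lamb1 ranged from 8.0 through a median of 16.2 to 21.8 TPM in WT, from 3.0 through 30.3 to 43.0 in matDKO and from 2.63 through 23.2 to 44.9 in matTKO. In matDKO 6 of 10 libraries and in matTKO 5 of 10 exceeded every WT library, and 1 and 2 lay below every WT library. The change was 0.47 ± 0.39 (SE; 95% interval -0.33 to 1.27; adjusted p = 0.550) in matDKO and 0.26 ± 0.39 (adjusted p = 0.827) in matTKO. Without the 4 libraries that stand apart the matDKO change was 0.88 ± 0.36 (SE), 1.5 times or more the value with them, and its adjusted p of 0.179 did not pass.

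Lamc1 ranged from 3.95 through 7.32 to 9.73 TPM in WT, from 2.22 through 8.89 to 15.7 in matDKO and from 4.50 through 7.10 to 12.2 in matTKO. Col4a1 ranged from 4.53 through 8.45 to 19.0, from 0.80 through 10.8 to 21.1 and from 1.17 through 6.17 to 16.8 TPM. Col4a2 ranged from 2.33 through 3.79 to 11.4, from 0.55 through 4.23 to 8.85 and from 0.10 through 3.31 to 7.17 TPM. For each of the 3 genes the groups overlapped. In matDKO 4 Lamc1 values lay above every WT library and 1 below, against 1 and 2 for Col4a1 and 0 and 2 for Col4a2. In matTKO these counts were 3 and 0, 0 and 2, and 0 and 3. The matDKO changes were 0.13 ± 0.23, -0.02 ± 0.40 and -0.21 ± 0.35 (SE; adjusted p 0.798, 0.989 and 0.794), and without the libraries that stand apart they were 0.40, 0.54 and 0.15 (adjusted p 0.255, 0.353 and 0.833), so both collagen changes were positive there. The sign of Col4a1 also turned with quantile (0.072) and median-ratio scaling (0.053). The matTKO changes were 0.09, -0.38 and -0.46 (adjusted p 0.9, 0.733 and 0.607). The lowest Pdgfra, Lamb1, Lamc1 and Col4a1 values of the matDKO group all came from replicate 9.

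Trophectoderm markers, from another lineage of the early embryo, are given beside these values. Their summed level was 1011 to 4016 TPM in WT (median 2698), 204 to 2604 in matDKO (1587) and 357 to 2590 in matTKO (1661), although 0 of the 9 tested markers were called in either mutant, by limma (medians -0.89 and -0.49). The lowest matDKO sum, 204 TPM, was again in replicate 9, and the lowest matTKO sum, 357 TPM, in replicate 8. Their part in the values was not tested.

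**Figure D4:**
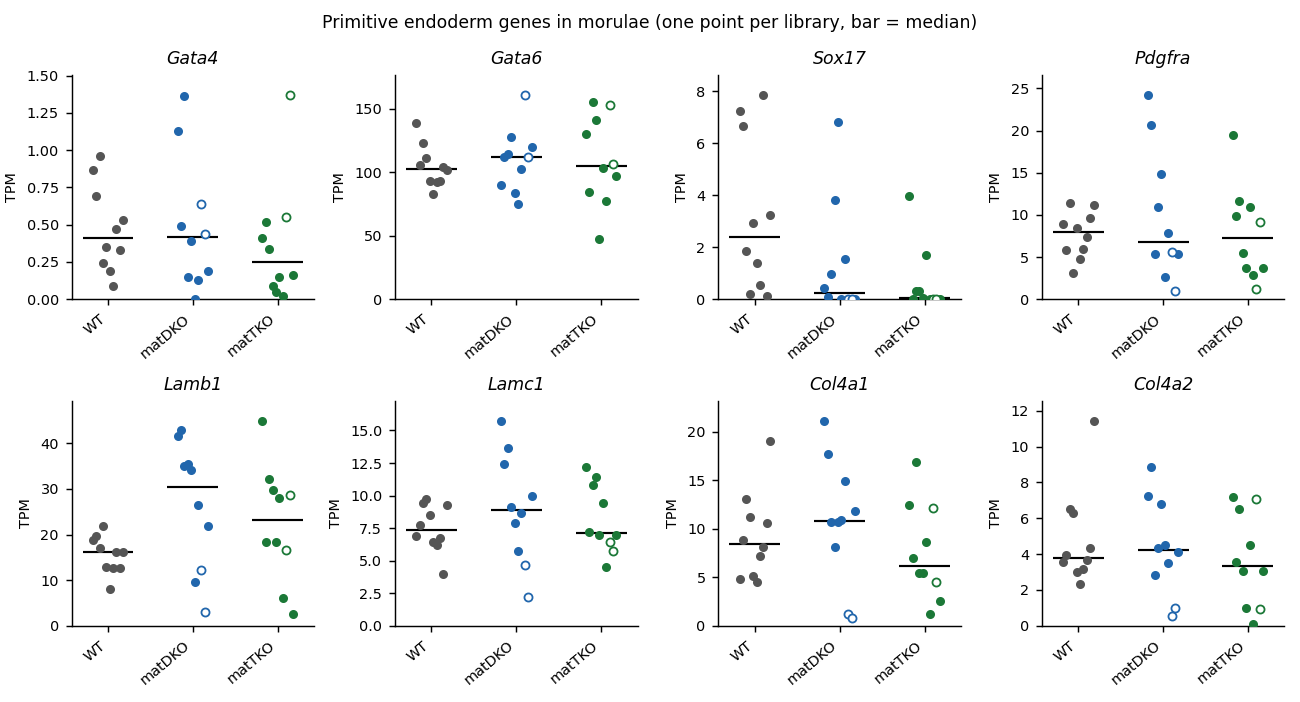
Levels of the same 8 genes in morulae: TPM on the vertical axis, 1 point per library, bar at the group median, open points for the 4 libraries that stand apart. Gata6 has medians of 103 to 112 TPM in all groups, and Lamb1 and Pdgfra spread further in matDKO and matTKO than in WT.

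A wider spread of the mutant libraries for most of these genes was examined after it had been seen. A permutation test of deviations from the group median was run for 7 genes in 3 comparisons. The SD of log2(TPM + 1) for Pdgfra was 0.51 in WT, 1.13 in matDKO (permutation p = 0.0524) and 0.97 in matTKO (permutation p = 0.0362). For Lamb1 it was 0.39, 1.12 (permutation p = 0.0847) and 1.12 (permutation p = 0.0604). Gata6 had an SD of 0.22 in WT and 0.52 in matTKO (permutation p = 0.0462). The SDs of Lamc1, Col4a1 and Col4a2 were also larger in both mutants than in WT. Sox17 went the other way, with an SD of 1.13 in WT, 1.07 in matDKO and 0.79 in matTKO. Adjusted over the 21 tests the lowest permutation p was 0.317, so no difference in spread passed, and without the libraries that stand apart it was 0.287. The Lamb1 SD was then 0.67 in matDKO (permutation p = 0.566) and 1.24 in matTKO (permutation p = 0.0468). In the same fits Col4a1 and Col4a2 were less spread in matDKO (SD 0.42 and 0.47) than in WT (0.60 and 0.56).

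Within each group, pairs of genes were compared across the 10 libraries, also after the values had been seen. The 18 relations were tested by permutation and adjusted together. Col4a1 and Col4a2, which share their start region, moved together in every group: r was 0.92 in WT (permutation p = 9.00e-05, adjusted 9.90e-04), 0.90 in matDKO (0.0023, adjusted 0.00839) and 0.85 in matTKO (0.0017, adjusted 0.00783). Spearman's rho was 0.96, 0.73 and 0.90 (permutation p adjusted 0.0018, 0.0462 and 0.00756). Without the 2 libraries farthest from the median of Col4a1, r was 0.84, 0.55 and 0.69, so the matDKO value rests in large part on those 2.

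Lamb1 and Lamc1 had r of 0.50 in WT (permutation p = 0.15, adjusted 0.263), 0.93 in matDKO (4.20e-04, adjusted 0.00252) and 0.63 in matTKO (0.048, adjusted 0.104). Their rho was 0.75, 0.83 and 0.75 (permutation p adjusted 0.0446, 0.0216 and 0.0446), and r without the 2 farthest libraries was 0.47, 0.83 and 0.74.

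Pdgfra and Lamb1 showed no relation that passed in WT, with r of -0.01 (permutation p = 0.97) and rho of -0.08 (permutation p = 0.84). In matDKO r was 0.89 (permutation p = 1.10e-04, adjusted 9.90e-04) and rho 0.83 (permutation p = 0.0048, adjusted 0.0216), with r of 0.80 without the 2 farthest libraries. In matTKO r was 0.63 (permutation p = 0.052, adjusted 0.104) and rho 0.78 (permutation p = 0.01, adjusted 0.0377). Whether the relation differs between WT and the mutants was not tested. Lamb1 and Col4a1 had r of 0.45 in WT, 0.80 in matDKO and 0.74 in matTKO (permutation p adjusted 0.317, 0.0373 and 0.0373; rho 0.42, 0.56 and 0.60, adjusted 0.382, 0.174 and 0.151), and the matTKO value fell to 0.27 without the 2 farthest libraries, on which it rests. No relation of Gata6 to Pdgfra or Sox17 passed in any group, with r from -0.20 to 0.30 and adjusted permutation p of 0.549 or more. Libraries share depth and composition effects that such relations also carry, and this was not separated.

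**Figure D5:**
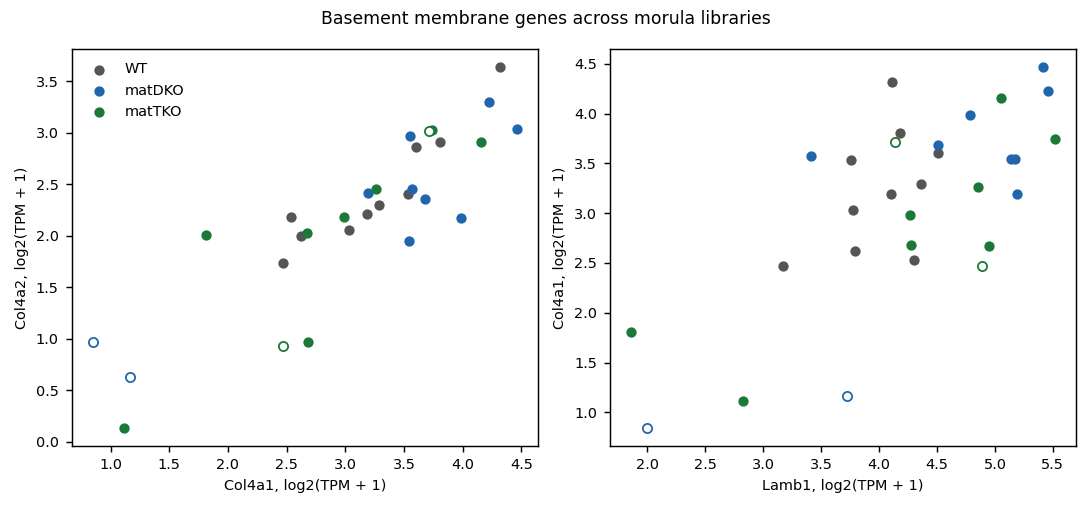
Col4a1 against Col4a2 and Lamb1 against Col4a1 in the 30 morula libraries, both axes in log2(TPM + 1), coloured by group, with open points for the 4 libraries that stand apart. The collagen pair lies along 1 diagonal in all groups (r 0.85 to 0.92), and the open matDKO points are at its low end.

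Of the lists named above, the collagen folding list had calls in matDKO morulae: 2 of 11 tested were higher, against 0.329% of all genes called higher, and 0 lower, with a median of 0.23. Plod2 averaged 9.56 TPM in WT and 26.5 in matDKO (1.21 ± 0.28 SE, adjusted p = 0.0225), and Plod1, its paralogue, 5.85 and 15.3 TPM (1.26 ± 0.28 SE, adjusted p = 0.0169). Both calls were kept in all 20 fits without a library, and that of Plod2 was lost without the filter on low values. Plod2 was thus higher in DKO oocytes, where it passed the filter only through mutant groups, and in matDKO morulae. Col4a1 and Col4a2 did not reach the filter in oocytes and were not called in matDKO morulae. In the FGF and MAP kinase list, 0 of 22 were higher and 1 was lower in matDKO, Hras (-0.59, adjusted p = 0.0295, lost in 4 of 20 fits without a library without the filter, and with quantile or median-ratio scaling). In the list of other primitive endoderm genes 1 of 13 was higher in matTKO, beside 0.176% of all genes called higher. That gene was Thbd, which encodes thrombomodulin (0.94, limma adjusted p = 0.0373). Its call was lost in 11 of 20 fits without a library, and also without the filter and with a pseudocount of 0.1. By limma, 0 genes were called in morulae among the PDGF, other GATA, SOXF and FOXA, other laminin and collagen, further basement membrane, receptor and epiblast lists.

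The genes whose levels were most like Gata6 over the 30 morula libraries, by Pearson's r of log2(TPM + 1) among 13049 candidates, were Dot1l (0.86), Gga1 (0.85), Hnrnpl (0.85), Upf1 (0.84) and Samd4b (0.82). Those most like the mean of the basement membrane genes were Uhrf1 (0.87), Csk (0.84), Clstn1 (0.82), Erlec1 (0.81) and Ezr (0.81). Over the 9 oocyte libraries of the second set, the mean of Lamb1 and Lamc1 was matched most closely by Zfp703, Hhipl2, Mef2d, Plekhg5 and Irf2bp2 (0.99 each, among 12870 candidates). Gata6, at 0.33 RPKM or less in those libraries, was matched most closely by Vps16 (0.97), Gm11546 (0.96), Cdc123 (0.94), Hspa14 (0.94) and Rnf149 (0.93). These likenesses are descriptions over libraries that share groups and normalisation. Each gene was picked as one of the highest among all candidates, so a high r over few libraries follows in part from that choice. Those of Gata6 in oocytes rest on values too low to be put in order.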

How the data were processed

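RNA-seq was analysed from 3 deposited tables. The 2 oocyte tables hold RPKM, per the file headers and the authors' titles. The title of the morula table says RPKM too. Its deposited libraries each sum to 999420 to 999920, so these values were treated as TPM. Reads were trimmed, aligned and counted by the authors with tools that the submitters' processing notes list as featureCounts 1.6.0, RSEM 1.3.1, STAR (2.7.3 and 2.7.6) and Trim Galore 0.6.4, on mm10, also named GRCm38. The notes used here do not tie a tool to a table. Per the labels, each library of the first oocyte set pooled 10 oocytes; for other libraries no number was found in the labels. Libraries were made with SMART-Seq and Nextera kits, which do not mark strand, so antisense reads cannot be told apart. Read depth is unknown, so no counting intervals were computed.

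Symbols turned into dates (27 in each oocyte table, 0 in the morula table) were dropped. Genes with a mean of at least 1 in 1 group of a table were tested on log2(value + 1) with limma 3.58.1 (R 4.3.3; trended empirical Bayes, all groups of a table in 1 fit, 2-sided), adjusted by Benjamini-Hochberg over all genes tested and called at an adjusted p under 0.05. The method was tested on simulated data with normal noise, where changes were planted only in genes well above the filter. Gata4, Gata6, Sox17 and Lamc1 lay below that level in wild-type oocytes, so the simulation does not check their calls. Permutation tests used 100000 resamples (Python 3.11.15, scipy 1.17.1, pandas 2.3.3). Alternatives were a pseudocount of 0.1, no filter, quantile and median-ratio scaling, fits of only the groups compared, a replicate block, and leaving out each library. Leaving out the 4 libraries that stand apart, the spread tests and the within-group correlations were added after seeing the data. The 10 genes and all lists were chosen with earlier results of these data known. Named were all 10 genes in every group, at most 3 genes a direction of each list among those called, and the 5 genes most like Gata6 and the basement membrane mean. Lists of endothelial and blood markers summed to 10.5 to 12.7 RPKM in PRC1-WT, 9.46 to 10.5 in PRC1-CD, 8.31 to 10.3 in WT, 7.09 to 9.45 in DKO and 11.8 to 14.7 in TKO.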

Additional observations from a re-analysis of the deposited data

Results flagged for a closer look

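In 4 of the 27 sets of 10 morula libraries examined, 1 value lay far from the other 9; the critical value used lets chance mark about 1 in 20 sets if values are normally distributed, which was not tested for these low values. Gata4 was at 1.37 TPM in matTKO replicate 9, with the next highest at 0.55. Sox17 was at 3.96 TPM in matTKO replicate 1, with the next at 1.70. Sox7 was at 2.04 TPM in matDKO replicate 5, with the next at 1. Col4a2 was at 11.4 TPM in WT replicate 10, with the next at 6.51.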

How the results depend on the processing

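Leaving out 1 library, the called genes numbered 1 to 2 in PRC1-CD (from 4), 1 to 2 in DKO (from 1), 3 in TKO, 2 in TKO against DKO and 0 in morulae. Over all changes, 452 fits without a library kept direction and call, 32 changed sign, 9 lost and 1 gained a call; the other settings gave 216, 8, 2 and 0. Sign changes outside these fits, none of them called, were Lamb1 in PRC1-CD with median-ratio scaling (-0.085), and in matDKO Pdgfra with a pseudocount of 0.1 (-0.023) and Col4a1 with quantile (0.072) and median-ratio scaling (0.053). Without the 4 libraries that stand apart, Col4a1 was 0.54, Col4a2 0.15 and Gata6 -0.028 in matDKO, and Gata6 -0.069 in matTKO. Where leaving out 1 library changed the sign, the ranges were -0.084 to 0.15 for Lamb1 in PRC1-CD; -0.15 to 0.25 (Col4a1), -0.14 to 0.26 (Pdgfra) and -0.012 to 0.11 (Gata6) in matDKO; -0.059 to 0.13 (Gata6) and -0.34 to 0.014 (Pdgfra) in matTKO; and -0.21 to 0.057 (Lamc1), -0.11 to 0.075 (Gata6) and -0.49 to 0.0505 (Lamb1) in matTKO against matDKO. The cause was not tested. Over all genes, matDKO calls (43 higher, 184 lower) were 17 and 76 without the filter and 90 and 210 without the libraries that stand apart, and matTKO calls (23 and 51) were 7 and 14 with a pseudocount of 0.1, 9 and 23 without the filter, 50 and 76 with quantile normalization, 33 and 94 with only the 2 groups compared and 102 and 81 without those libraries. Leaving out 1 library, matDKO calls ran from 18 and 67 (without WT replicate 5) to 87 and 390 (without WT replicate 9), matTKO calls from 9 and 28 (without WT replicate 7) to 40 and 120 (without WT replicate 9), and PRC1-CD calls from 1041 and 197 to 1431 and 112, against 2309 and 750 with all 4. For matTKO against matDKO (6 and 3) they were 5 and 1 with a pseudocount of 0.1, 5 and 0 without the filter, 9 and 5 with quantile normalization, 2 and 2 with only the 2 groups, and 2 and 0 to 18 and 5 without 1 library. DKO calls (2251 and 1450) were 1549 and 872 without WT replicate 3.

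The labels do not say whether replicate numbers pair the samples, and the main fits did not pair them. Deviations of same-numbered libraries correlated at 0.09 in the first oocyte set, where groups of 2 fix both pairs at the same value. They correlated at -0.05 to 0.11 in the second set and at -0.17 to 0.57 in morulae, over 0.1 in 13 of 30 pairs. Whether morulae of the same number shared an animal or day cannot be told from these values. With a replicate block the called genes numbered 4, 1, 3 and 2 in oocytes and 0 in each morula comparison, and over all genes matDKO calls were 122 and 485, matTKO calls 46 and 137.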

Other observations

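Of 10 genes of the epiblast, the alternative fate of the same inner cell mass cells, 5 were tested in each table, with 3 called higher and 0 lower in PRC1-CD and DKO and 3 higher and 1 lower in TKO (medians 1.33, 0.84 and 0.52), beside 17.3%, 17.5% and 31.2% of all genes called higher. The lower gene in TKO was Esrrb (-0.51, adjusted p = 0.00319). Klf4, a pluripotency factor, averaged 1.92 RPKM in PRC1-WT against 13.4 in PRC1-CD (change 2.31), and 1.62, 9.0 and 25.6 RPKM in WT, DKO and TKO (1.93 and 3.33). Sox2 averaged 0.37 and 4.22 RPKM (1.91), then 0.137, 1.2 and 5.03 RPKM (0.95 and 2.40), and it passed the filter only through the mutant groups. Of 10 trophectoderm markers, 6 were tested in PRC1-CD with 3 higher and 1 lower, and 4 in the second set with 2 higher and 2 lower in both DKO and TKO (medians 0.61, -0.32 and 0.05). In PRC1-WT 4 of the 10 had a mean of at least 1 RPKM, against 6 in PRC1-CD. In WT 3 did, against 4 in DKO and 4 in TKO. Some thus passed the filter only through mutant groups where they were higher, and the counts are descriptions. In morulae 0 of the 10 epiblast genes were called by limma in any comparison. Levels of Gata6 and Sox17 in DKO and TKO oocytes stayed below 1 RPKM, as given above.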
